A study of Homo sapiens with 11 samples.

Results

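The genes that make, break down and sense prostaglandins were followed across the 4 groups of the series. They are 10 genes, PLA2G4A, PTGS1, PTGS2, PTGES, PTGES2, PTGES3, HPGD, PTGR1, PTGER2 and PTGER4, measured by 11 probes, of 20249 named genes and 42405 probes on the array. Every probe whose RefSeq accession belongs to 1 of the 10 genes was taken, and PTGS1 was the one gene with 2 probes. The genes were picked with their changes on these arrays already known, so their calls are given as a description and support nothing by themselves.

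The arrays measured messenger RNA of A549 and HCC827, established human lung adenocarcinoma cell lines, which the study used to ask what changes when the ubiquitin ligase TRIM58 is put back. Every cell carried the retroviral vector pMXs-Neo and had been selected with G418, the mock cells with the empty vector and the TRIM58-WT cells with wild-type TRIM58 carrying a FLAG tag. A549 was measured in 3 mock replicates on 4 arrays and in 3 TRIM58-WT replicates on 3 arrays, and HCC827 on 4 arrays, 2 for each construct, each a replicate. The study names its A549 transfectants as clones and those of HCC827 as crude transfectants, so an A549 replicate can be 1 clone, and clone and construct cannot be told apart. Mock arrays 1-1 and 1-2 of A549 carry the same cell number and were averaged to 1 replicate. The labels do not say whether the other replicates were grown separately, so p-values measure the spread between these samples alone.

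Prostaglandins start from arachidonic acid, a fatty acid that cytosolic phospholipase A2 cuts from membrane phospholipids. The cyclooxygenases turn it to prostaglandin H2, from which the prostaglandin E synthases make prostaglandin E2, a lipid signal that leaves the cell and acts on receptors of its own and neighbouring cells. In lung adenocarcinoma this branch is known for cyclooxygenase-2, which inflammatory and growth signals induce and whose product promotes the growth of tumour cells.

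All values below are levels, meaning the log2 signal of a probe relative to the 75th percentile of its array, so 0 is that percentile and 1 unit is 2-fold. The level of a probe was compared between arrays and never with that of another probe. The scanner software marked between 40.1% and 49.99% of the probes as well above background on each array, and no spot was saturated. The 75th percentile of the signal was between 56.6 and 62.5 on A549 mock array 3 and TRIM58-WT arrays 2 and 3 and between 90.5 and 125 on the other arrays. The arrays lay on 2 slides, with mock and TRIM58-WT arrays of A549 on both and all HCC827 arrays on slide 1. A_33_P3249414, which reads TRIM58 itself, rose above background on A549 mock array 3 alone, at -0.71, and lay between -5.64 and -4.63 elsewhere, all TRIM58-WT arrays included. The place of this probe relative to the coding insert was not analysed here, so directions below are taken from the labels, TRIM58-WT against mock. Of the 5 epithelial markers, all were well above background on every A549 mock and HCC827 array and 3 (KRT8, KRT18 and CDH1) on every A549 TRIM58-WT array, where KRT19 was on none. Their summed level was 9.99 to 10.4 in A549 mock, 9.11 to 9.37 in A549 TRIM58-WT and 9.77 to 10.2 in HCC827. Of the 5 alveolar type II markers, NKX2-1 and NAPSA were well above background on every HCC827 array and SFTPA1 on none. SFTPB and SFTPC were so on some but not all HCC827 arrays, and SFTPC and NAPSA also on some A549 arrays. None of the 5 was so on every array of an A549 group, and NKX2-1, SFTPB and SFTPA1 were on no A549 array. The 3 endothelial markers were on no array. Of the 5 leukocyte markers CD3E and TPSAB1 were on none and CD68 on every array. PTPRC was on every HCC827 mock array and on some arrays of each other group. CD14 was on every array but 2 of A549 TRIM58-WT, where CD14 was called lower by limma (change -3.06, adjusted p = 0.00153). The summed level of the leukocyte list was 1.93 to 2.30 in A549 mock, 0.73 to 1.104 in A549 TRIM58-WT, 2.17 to 2.19 in HCC827 mock and 2.66 to 2.86 in HCC827 TRIM58-WT. That of the fibroblast list was -2.09 to 0.29, -0.99 to 0.82, -2.05 to -1.98 and -2.34 to -2.22 in the same order, and of the 5 fibroblast markers COL1A1 alone was so on every array of a group, A549 TRIM58-WT. The part of these markers in the results was not tested. In these cell lines, fewer cells with a marker cannot be told apart from less RNA per cell.

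Between mock and TRIM58-WT cells, the called members were those at the head of the pathway, PLA2G4A and the cyclooxygenases. PLA2G4A, which releases arachidonic acid, was lower in the arrays labelled TRIM58-WT by 7.15-fold in A549 and 3.65-fold in HCC827. PTGS1, a cyclooxygenase, was lower in A549 and higher in HCC827, and PTGS2, the other cyclooxygenase, was called lower in HCC827 alone. No call was made in either line for the 3 prostaglandin E synthases, the receptors and the degrading enzymes HPGD and PTGR1. Some of these could not be called, since PTGES was not tested in HCC827, HPGD not in A549 and PTGER2 in neither line. In A549, 2 of the 8 tested member probes were called, both lower, at an adjusted p under 0.05 and a change of at least 2-fold, where 6.92% of the 16920 probes tested were called and 3.43% called lower. In HCC827, 3 of the 9 tested member probes were called, 2 lower and 1 higher, where 0.885% of the 19542 probes tested were called, 0.594% lower and 0.292% higher. The median change over the tested member probes was -0.70 in A549 and 0.19 in HCC827, and over all probes tested it was 0.06 and 0.01.

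**Figure D1:**
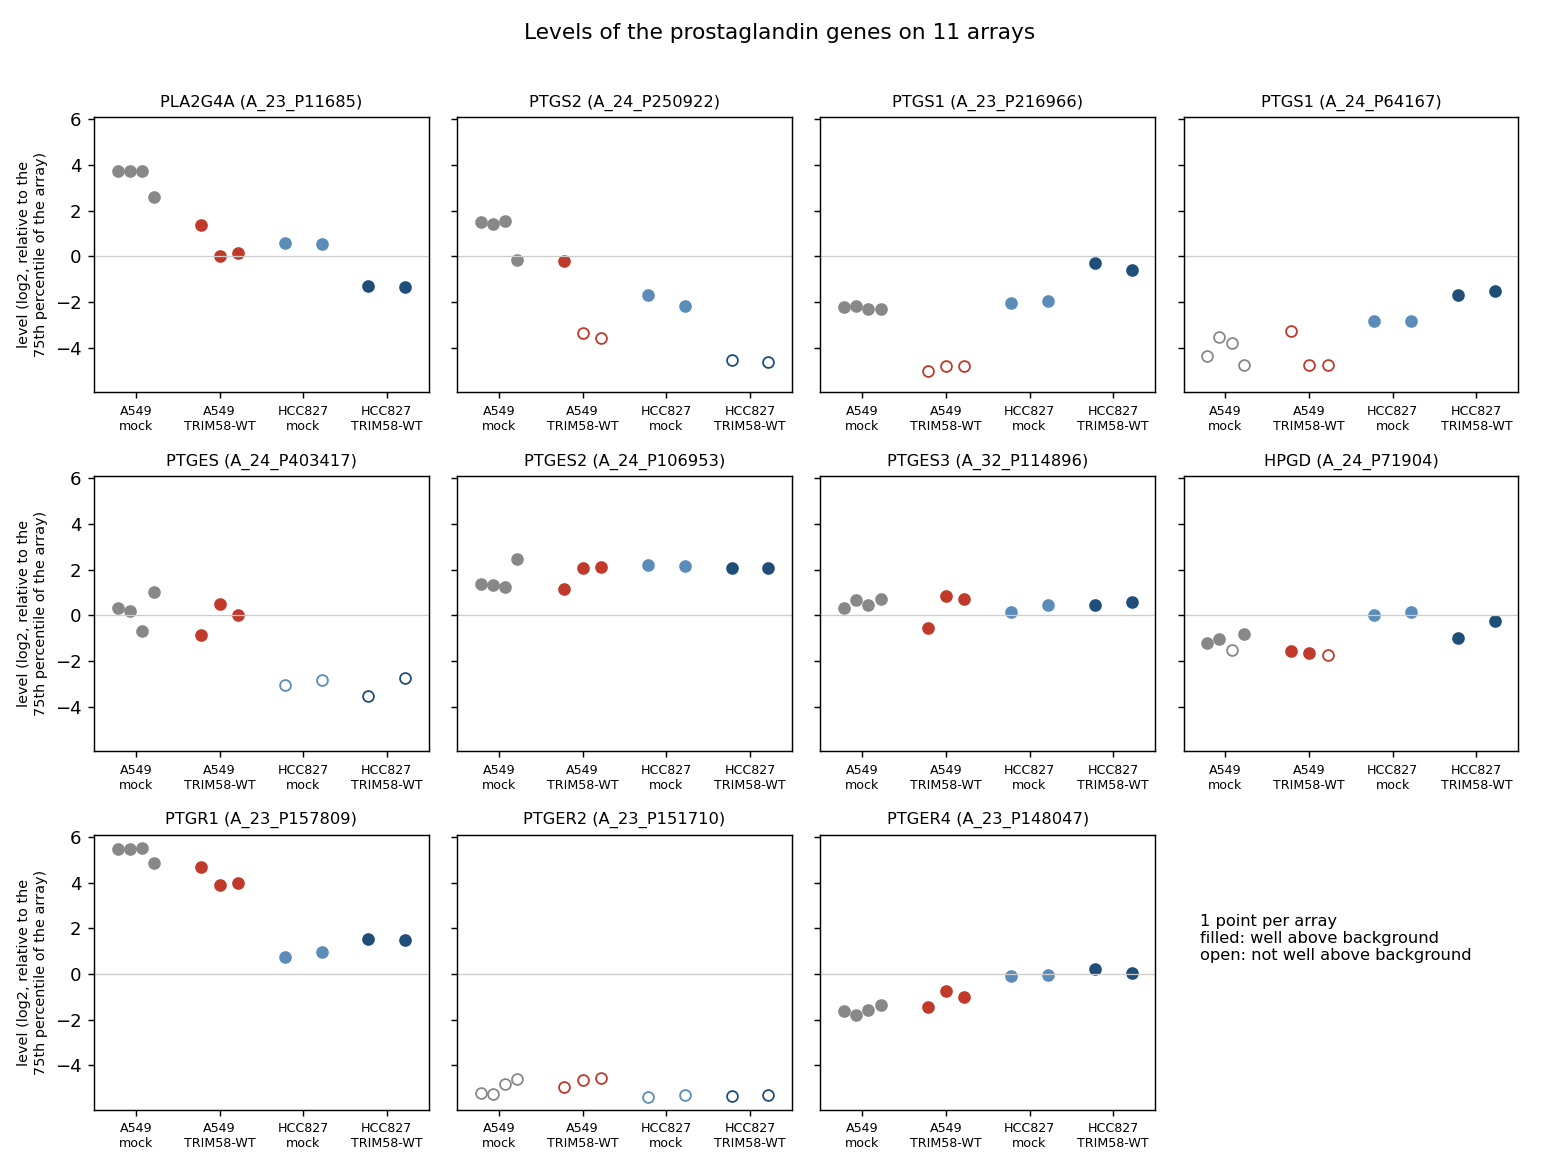
Level of each of the 11 member probes (log2, relative to the 75th percentile of the array) on the 11 arrays by group, with filled points for arrays well above background and open points for the others. PLA2G4A sits at 2.59 to 3.76 in A549 mock and at 0.04 to 1.38 in A549 TRIM58-WT, PTGS1 (A_23_P216966) sits at -4.99 to -4.79 in A549 TRIM58-WT and at -0.61 and -0.30 in HCC827 TRIM58-WT, and PTGER2 is open throughout.

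PLA2G4A encodes cytosolic phospholipase A2 alpha, which releases arachidonic acid from membranes when calcium rises. Its probe A_23_P11685 was well above background on all 11 arrays, so its levels are measured in every group. In A549 the level was 3.76, 3.73, 3.76 and 2.59 on mock arrays 1-1, 1-2, 2 and 3, and 1.38, 0.04 and 0.16 in TRIM58-WT replicates 1, 2 and 3. The HCC827 mock replicates lay at 0.59 and 0.52 and the TRIM58-WT replicates at -1.30 and -1.32. Mock replicate 3 was the lowest mock and TRIM58-WT replicate 1 the highest TRIM58-WT of A549, and the groups did not overlap in either line. The change was -2.84 (SE 0.48, 3 replicates against 3), or 7.15-fold, in A549 and -1.87 (SE 0.13, 2 against 2), or 3.65-fold, in HCC827. The adjusted p from limma was 0.0195 in A549 and 0.0308 in HCC827.

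PLA2G4A was the one member probe called lower in both lines, which held for 0.0632% of the 15821 probes tested in both (10 probes). The change differed between the lines by -0.97 (SE 0.66, adjusted p = 0.482), so a difference in size was not called. Within slide 1 the A549 change was -2.38 and within slide 2 it was -3.06. The A549 call was lost without mock replicate 1 (adjusted p = 0.0972), mock replicate 2 (0.0847), TRIM58-WT replicate 2 (0.0794) or TRIM58-WT replicate 3 (0.0905), while the change stayed between -3.27 and -2.59 with any replicate left out. It was also lost with Welch's t-test (0.147), 1 of the tests the study names for 2 groups and here called the methods' t-test. Averaging TRIM58-WT replicates 2 and 3 lost it too (0.0854). The HCC827 call was lost without mock replicate 1 (adjusted p = 0.177), mock replicate 2 (0.101) or TRIM58-WT replicate 1 (0.0689), where the change lay between -1.90 and -1.84.

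PTGS2 encodes cyclooxygenase-2, the inducible form of the enzyme. On A549 mock arrays 1-1, 1-2, 2 and 3 the level of its probe A_24_P250922 was 1.5, 1.44, 1.55 and -0.17, and in TRIM58-WT replicates 1, 2 and 3 it was -0.19, -3.33 and -3.58. The HCC827 replicates lay at -1.70 and -2.16 (mock) and -4.53 and -4.64 (TRIM58-WT). The probe was not well above background in A549 TRIM58-WT replicates 2 and 3 nor in either HCC827 TRIM58-WT replicate. In A549, mock replicate 3 and TRIM58-WT replicate 1 lay next to each other, and the groups were separate by a gap of 0.01.

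The A549 change of PTGS2, -3.31 (SE 0.98, adjusted p = 0.0911), was not called, and the HCC827 change, -2.66 (SE 0.20, adjusted p = 0.0341), was called. Since the HCC827 TRIM58-WT signal is only a bound, PTGS2 was at least 2.71-fold lower there. Such a bound sets the mean of the brighter group against the lowest signal that counted as well above background on each dim array, or against the signal of the probe itself where that was higher. Without A549 TRIM58-WT replicate 1 the A549 change was called (adjusted p = 0.0150), and since neither remaining TRIM58-WT array measured the probe it is a bound, at least 11.1-fold lower. TRIM58-WT arrays 2 and 3 and mock array 3 had the lowest 75th percentile of the signal among the A549 arrays. Within both groups PTGS2 was lower on them, and the part of this split in the call was not tested. Without any other A549 replicate the A549 change stayed uncalled. It was also called with slide as a block (-3.14, adjusted p = 0.0111), a median shift (-3.68, 0.00365), both lines in one fit (0.0324), 4 mock arrays taken separately (0.0325) and the replicate block (0.049997). The slide block, too, took the 4 mock arrays separately, so repeat arrays 1-1 and 1-2 counted as separate samples. Of the 21 alternatives that tested PTGS2 in A549, 6 called it, and its change lay between -4.40 and -1.35. Leaving out 1 HCC827 replicate leaves 1 sample in an arm, which is then assumed to vary like the other group. The HCC827 call of PTGS2 was lost without any 1 of its replicates, with changes between -2.88 and -2.43, at adjusted p of 0.159 without mock replicate 1, 0.0698 without mock replicate 2, 0.0874 when TRIM58-WT replicate 1 was dropped and 0.0506 when its replicate 2 was. The A549 change was -1.71 within slide 1 and -4.09 within slide 2, and the change differed between the lines by -0.66 (SE 1.37, adjusted p = 0.841).

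PTGS2 and PLA2G4A lie beside each other on chromosome 1. Their starts in the RefSeq table of GRCh38.p14 are 149 kb apart on opposite strands, and the table lists 1 gene between them, the long non-coding RNA PACERR. By order along the chromosome, the 6 genes with a probe on either side were also looked at, a choice made after the values were seen. Of these neighbours, 3 were tested in both lines and limma called 0 of them, with 1 at an unadjusted p under 0.05 in A549 (IVNS1ABP) and 0 in HCC827. IVNS1ABP changed by 0.62 in A549 and 0.32 in HCC827 (adjusted p = 0.124 and 0.270), TPR by -0.01 and -0.33 (0.990 and 0.262), and ODR4 by -0.41 and -0.09 (0.560 and 0.773). The other neighbours, among them BRINP3, RGS1 and PRG4, were not bright enough to be tested.

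**Figure D2:**
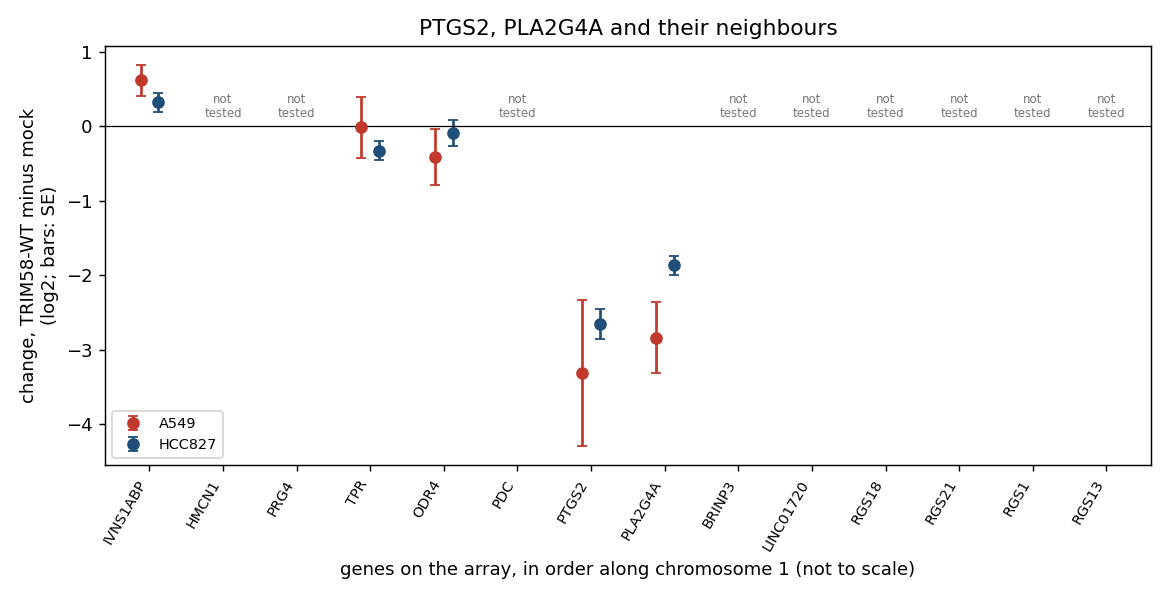
Change between TRIM58-WT and mock (log2, bars show the SE) of the genes with a probe around PTGS2 and PLA2G4A, in their order along chromosome 1 and not to scale, in A549 and HCC827. The 3 neighbours that were tested lie between -0.41 and 0.62, and PTGS2 and PLA2G4A lie between -3.31 and -1.87.

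The promoters of both genes and of PTGS1 are shown because these are the members called between mock and TRIM58-WT. Each run holds the 250 bases before the gene start, read from RefSeq (GRCh38.p14) along the strand of the gene, and capitals mark matches on either strand to TATAAA (the TATA box), TGACG (the core of a cAMP response element), TTNCGNAA (C/EBP motif), GGGCGG (GC box) and TGANTCA (AP-1 motif). PTGS1 has 2 starts in the table. The windows lie at chr1:186680424-186680673 on the minus strand (PTGS2), chr1:186828699-186828948 (PLA2G4A), chr9:122370283-122370532 (PTGS1, first start) and chr9:122375052-122375301 (PTGS1, second start), the last 3 on the plus strand.
PTGS2: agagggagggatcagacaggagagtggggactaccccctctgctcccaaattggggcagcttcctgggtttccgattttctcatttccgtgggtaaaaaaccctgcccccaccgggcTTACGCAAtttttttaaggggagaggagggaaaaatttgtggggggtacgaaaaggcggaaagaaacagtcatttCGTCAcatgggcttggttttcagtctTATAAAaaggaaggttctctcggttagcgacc
PLA2G4A: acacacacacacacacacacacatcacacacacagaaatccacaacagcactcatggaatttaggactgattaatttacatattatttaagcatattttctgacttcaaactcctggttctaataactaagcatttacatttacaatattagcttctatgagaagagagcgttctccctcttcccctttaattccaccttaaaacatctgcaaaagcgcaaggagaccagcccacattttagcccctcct
PTGS1 first start: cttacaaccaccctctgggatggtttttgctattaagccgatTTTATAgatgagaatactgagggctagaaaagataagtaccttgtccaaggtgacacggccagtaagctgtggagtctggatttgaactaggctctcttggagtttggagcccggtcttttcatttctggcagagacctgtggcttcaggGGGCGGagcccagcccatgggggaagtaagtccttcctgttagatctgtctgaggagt
PTGS1 second start: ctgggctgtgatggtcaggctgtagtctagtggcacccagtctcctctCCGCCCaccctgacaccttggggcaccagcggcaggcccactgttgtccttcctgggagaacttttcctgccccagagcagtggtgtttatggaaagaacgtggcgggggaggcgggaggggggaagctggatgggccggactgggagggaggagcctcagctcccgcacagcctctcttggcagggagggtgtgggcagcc

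The PTGS2 window held a C/EBP match from -133 to -126, a match to TGACG from -58 to -54 and a TATA box from -32 to -27, counted from the gene start. The PLA2G4A window held none of the 5 motifs. PTGS1 had a TATAAA match from -208 to -203 and a GC box from -58 to -53 before the first start, and a GC box from -202 to -197 before the second. Of all 35116 windows of this length in the table, 2.18% held the C/EBP motif, 21.2% TGACG, 10.72% TATAAA, 42.6% the GC box and 6.57% the AP-1 motif. A match is a run of letters and does not show that a factor binds there.

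PTGS1 encodes cyclooxygenase-1, the form made steadily in many tissues. The level of its brighter probe, A_23_P216966, was -2.23, -2.18, -2.32 and -2.31 on A549 mock arrays 1-1, 1-2, 2 and 3 and -4.99, -4.79 and -4.79 in TRIM58-WT replicates 1, 2 and 3. HCC827 gave -2.04 and -1.97 (mock) against -0.30 and -0.61 (TRIM58-WT). The replicates of each group lay close together, no groups overlapped, and the 3 A549 TRIM58-WT arrays were not well above background.

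The change of PTGS1 was -2.58 in A549 (SE 0.15, adjusted p = 0.000704) and 1.55 in HCC827 (SE 0.16, adjusted p = 0.0497), both called. As a bound, PTGS1 was at least 1.28-fold lower in A549 TRIM58-WT, because the mock signal itself was near the limit of detection. In HCC827, where all 4 arrays measured it, the rise was 2.92-fold. It was the one member called in opposite directions, which held for 0.0695% of the 15821 probes tested in both lines (11 probes). The difference between the lines was itself called, at -4.13 (SE 0.23, adjusted p = 0.000101), where 3.85% of the 20617 probes tested for it were called and 1 of the 10 tested member probes. Because A549 TRIM58-WT did not measure PTGS1, this size is not exact. With A549 at its bound the difference was -1.90, and with normexp background correction it was -0.86 (adjusted p = 0.0422).

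The A549 call held with any replicate left out (adjusted p up to 0.0117) and was lost with normexp background correction, where the change was -0.20 (adjusted p = 0.421) and the HCC827 change 0.66 (0.0662). The HCC827 call was lost without mock replicate 1 (0.239), mock replicate 2 (0.153) or TRIM58-WT replicate 1 (0.107), with outlier spots kept (0.0505) and in the deposited log2 table (0.0551). The HCC827 calls of PLA2G4A, PTGS2 and PTGS1 were all lost with no filter (adjusted p between 0.185 and 0.206), with the replicate block (between 0.0778 and 0.112) and with the methods' t-test (0.619). Those of PLA2G4A and PTGS2 were lost with both lines in one fit (0.197 and 0.414), and that of PTGS2 with normexp (-0.44, 0.128). The second probe, A_24_P64167, was well above background in HCC827 alone, at -2.83 on both mock arrays against -1.71 and -1.51 with TRIM58-WT. Both HCC827 TRIM58-WT replicates were higher than both mock replicates, by 1.22 (SE 0.14, adjusted p = 0.0573), which was not called. On the A549 arrays this probe lay between -4.76 and -3.28, not well above background on any of them, and it was not tested there.

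**Figure D3:**
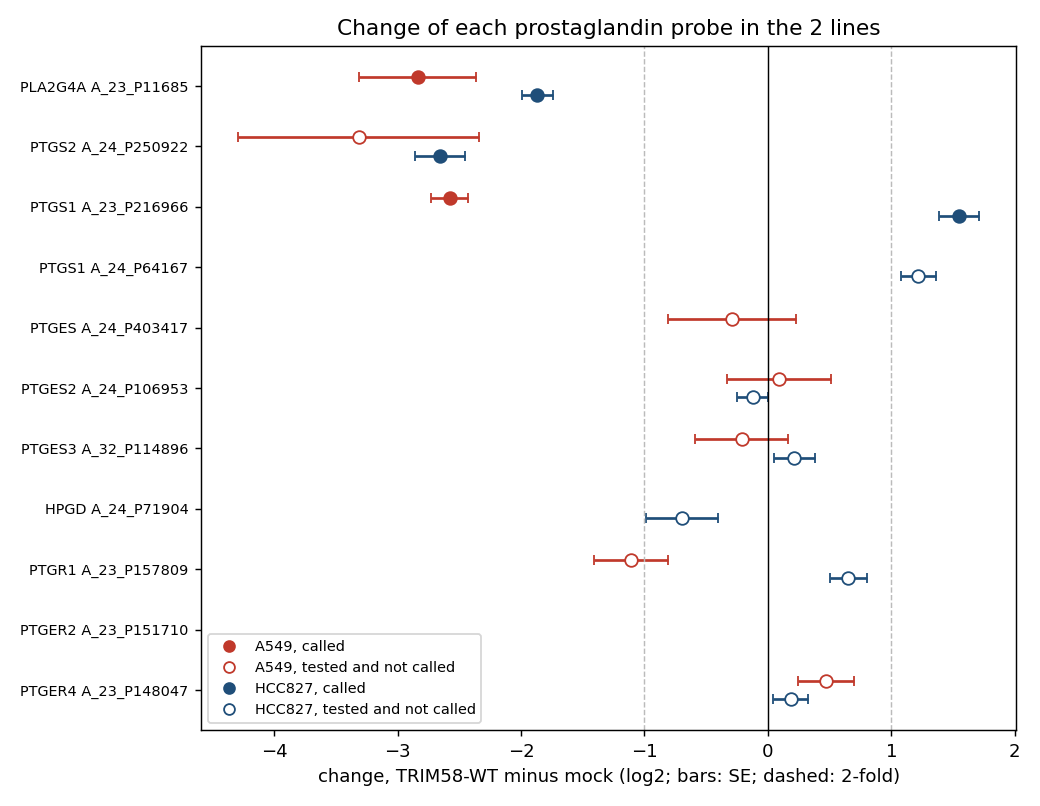
Change between TRIM58-WT and mock (log2, bars show the SE, dashed lines mark 2-fold) of each member probe tested in A549 and HCC827, with filled points for called probes. PLA2G4A and PTGS2 lie left of the lower dashed line in both lines, and PTGS1 (A_23_P216966) lies at -2.58 in A549 and at 1.55 in HCC827.

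The 3 prostaglandin E synthases had no called change. PTGES encodes the microsomal synthase that is induced together with cyclooxygenase-2, and the level of its probe A_24_P403417 was 0.31, 0.20, -0.69 and 1.01 on A549 mock arrays 1-1, 1-2, 2 and 3 and -0.84, 0.51 and 0.03 in TRIM58-WT. These groups overlapped, and the change was -0.29 (SE 0.52, adjusted p = 0.775). In HCC827 the probe lay between -3.55 and -2.75, on no array well above background.

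PTGES2 encodes a second, membrane-associated synthase, and the level of its probe A_24_P106953 was 1.38, 1.33, 1.22 and 2.46 on A549 mock arrays 1-1, 1-2, 2 and 3, 1.14, 2.07 and 2.09 in TRIM58-WT, 2.22 and 2.17 in HCC827 mock and 2.06 and 2.08 in HCC827 TRIM58-WT. In A549 the arrays split across the groups, with mock array 3 and TRIM58-WT arrays 2 and 3 high. These are the 3 A549 arrays with the lowest 75th percentile of the signal, and its part in this pattern was not tested. The change was 0.09 (SE 0.42, adjusted p = 0.921) in A549 and -0.12 (SE 0.13, adjusted p = 0.602) in HCC827.

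PTGES3 encodes p23, a cochaperone of HSP90 that also has prostaglandin E synthase activity. Its probe A_32_P114896 lay between 0.31 and 0.71 on the A549 mock arrays, at -0.54, 0.84 and 0.70 in TRIM58-WT, at 0.15 and 0.45 in HCC827 mock and at 0.44 and 0.59 in HCC827 TRIM58-WT. TRIM58-WT replicate 1 of A549 was the lowest array, and mock and TRIM58-WT overlapped in both lines. The change was -0.21 (SE 0.38, adjusted p = 0.777) in A549 and 0.21 (SE 0.17, adjusted p = 0.498) in HCC827.

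Breakdown of prostaglandin E2 starts with HPGD, the 15-hydroxyprostaglandin dehydrogenase, and goes on with PTGR1, prostaglandin reductase 1, which also inactivates leukotriene B4. The level of HPGD (A_24_P71904) was -1.23, -1.02, -1.51 and -0.81 on A549 mock arrays 1-1, 1-2, 2 and 3 and -1.56, -1.66 and -1.75 in TRIM58-WT. All 3 TRIM58-WT replicates were below all mock replicates, but mock array 2 and TRIM58-WT array 3 were not well above background and the probe was not tested in A549. HCC827 gave -0.01 and 0.16 (mock) against -1.0 and -0.24 (TRIM58-WT), a change of -0.70 (SE 0.29, adjusted p = 0.281).

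PTGR1 (A_23_P157809) was at 5.48, 5.46, 5.53 and 4.84 on A549 mock arrays 1-1, 1-2, 2 and 3 and at 4.67, 3.88 and 3.97 in TRIM58-WT. HCC827 mock cells had 0.73 and 0.97 and their TRIM58-WT counterparts 1.54 and 1.47. The groups did not overlap in either line, with the TRIM58-WT replicates below mock in A549 and above it in HCC827. The change was -1.11 (SE 0.30, adjusted p = 0.0727) in A549 and 0.65 (SE 0.15, adjusted p = 0.134) in HCC827, and the difference between the lines was -1.76 (SE 0.42, adjusted p = 0.0602), none of them called. With slide as a block, which also took the 4 mock arrays separately, the A549 change was -1.07 and called (adjusted p = 0.0105). It was also called with a median shift (-1.48, 0.0379), both lines in one fit (0.0226) and 4 mock arrays taken separately (0.0231). Without A549 mock replicate 3 the A549 change was -1.33 (adjusted p = 0.0398) and the difference -1.98 (0.0166), and without A549 TRIM58-WT replicate 1 they were -1.36 (0.0340) and -2.01 (0.0175), all called. Mock array 3 and TRIM58-WT arrays 2 and 3 had the lowest 75th percentile of the signal among the A549 arrays. Its part in these calls was not tested.

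Of the receptors for prostaglandin E2, PTGER2 and PTGER4 both raise cyclic AMP. PTGER2 (A_23_P151710) lay between -5.39 and -4.56 and stood well above background on no array, so it was tested in no comparison. PTGER4 (A_23_P148047) was at -1.60, -1.79, -1.59 and -1.34 on A549 mock arrays 1-1, 1-2, 2 and 3, at -1.44, -0.75 and -1.01 in TRIM58-WT, at -0.08 and -0.05 in HCC827 mock and at 0.22 and 0.03 in HCC827 TRIM58-WT. The A549 groups overlapped and the HCC827 groups did not. The change was 0.47 (SE 0.23, adjusted p = 0.262) in A549 and 0.19 (SE 0.14, adjusted p = 0.486) in HCC827.

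Taking the members by whether groups were separate, the replicates of mock and TRIM58-WT did not overlap for 4 of the 8 tested member probes in A549, where this held for 31.0% of all probes tested, and for 8 of 9 in HCC827, where it held for 56.7%. With 2 replicates against 2, separate groups were thus common among all probes.

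The lines themselves differed in these genes before TRIM58. In mock cells, 7 of the 10 tested member probes were called between A549 and HCC827, 4 higher and 3 lower in A549, where 30.1% of the 19499 probes tested were called, 14.0% higher and 16.1% lower. PTGR1 was higher in A549 by 4.43 (SE 0.30, adjusted p = 8.92e-06), PLA2G4A by 2.81 (SE 0.47, adjusted p = 0.00154) and PTGS2 by 2.88 (SE 0.96, adjusted p = 0.0410). PTGES differed by 3.12 (SE 0.54, adjusted p = 0.00193), or 8.69-fold. No HCC827 mock array had it well above background, and its own signal there, which exceeded the lowest measured signal, was used. With normexp background correction the difference of PTGES was 1.36 (adjusted p = 0.00394). PTGER4 and HPGD were lower in A549, with differences of -1.47 (SE 0.22, adjusted p = 0.000933) and -1.22 (SE 0.27, adjusted p = 0.00673).

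The second PTGS1 probe was also called lower in A549, at least 1.04-fold (adjusted p = 0.0487), whereas the brighter PTGS1 probe differed by -0.28 (SE 0.16, adjusted p = 0.194) and was not called. Within slide 1, which held mock arrays of both lines, the differences were 4.65 for PTGR1, 3.20 for PLA2G4A, 3.45 for PTGS2, 2.74 for PTGES, -1.53 for PTGER4 and -1.44 for HPGD. The PTGS2 call was lost without mock replicate 1 (adjusted p = 0.104) or 2 (0.103) of A549 and without mock replicate 1 (0.123) or 2 (0.176) of HCC827, and with no filter (0.0760). That of HPGD was lost without HCC827 mock replicate 2 (0.0557), and with normexp the differences of HPGD and PTGER4, -0.56 and -0.65, were under 2-fold. The call of the second PTGS1 probe was lost without any of the 5 mock replicates, at adjusted p between 0.0545 and 0.170.

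Set in order, PLA2G4A was highest in A549 mock and lowest in HCC827 TRIM58-WT, and the A549 TRIM58-WT replicates (0.04 to 1.38) enclosed those of HCC827 mock (0.52 and 0.59). PTGS2 was highest in A549 mock replicates 1 and 2, followed by A549 mock replicate 3 and TRIM58-WT replicate 1 side by side (-0.17 and -0.19) and then by HCC827 mock, and the 4 TRIM58-WT arrays of both lines on which it was not well above background have no order among themselves. PTGS1 (A_23_P216966) ran from HCC827 TRIM58-WT over HCC827 mock and A549 mock, whose difference was not called, to A549 TRIM58-WT, where it was not well above background. PTGR1 ran from A549 mock over A549 TRIM58-WT and HCC827 TRIM58-WT to HCC827 mock, with no overlap.

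PTGS2 and PTGR1 were the members that varied most over the 10 replicates, with SDs of 2.32 and 1.92. For each, the genes with the nearest pattern were sought among 16602 probes well above background in at least 1 group, by the root mean square difference over the 10 replicates once each probe was centred on its own mean. Those nearest to PTGS2 were RNF43 at 0.60, PLA2G4A at 0.64 and EPB41L4A at 0.70, against a median of 2.30 over all probes. The search ran over all named genes. PLA2G4A and PTGS2 were both picked as members with their changes known, so their nearness supports nothing by itself. Those nearest to PTGR1 were CYP1B1 at 0.30, CEBPA at 0.33 and AVPI1 at 0.34, against a median of 1.91. The likeness is a description, and levels not well above background entered it. The replicates share their lines, so a gene that differs between A549 and HCC827 comes near by that alone.

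**Figure D4:**
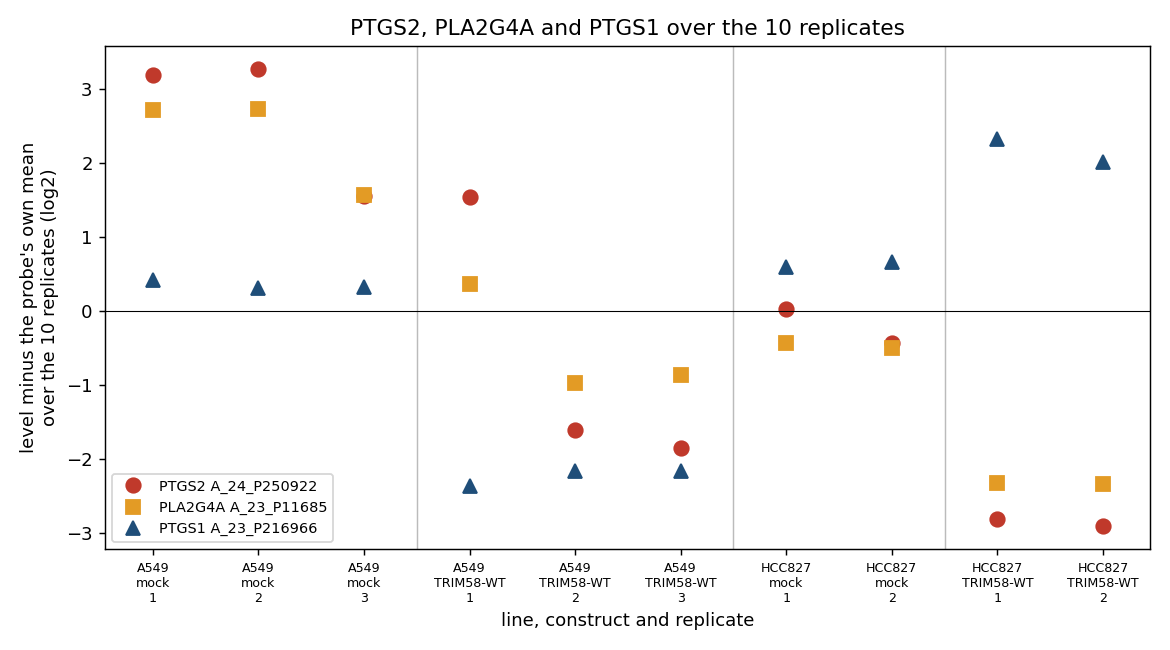
Level of PTGS2, PLA2G4A and PTGS1 in each of the 10 replicates, minus the mean of the probe over the 10 replicates (log2). PTGS2 and PLA2G4A are highest in A549 mock replicates 1 and 2 (3.20 and 3.28, 2.73 and 2.74) and lowest in HCC827 TRIM58-WT (-2.81 and -2.91, -2.32 and -2.33), where PTGS1 is highest (2.33 and 2.02).

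Around the members, a wider list of 70 pathway genes was read with 1 probe per gene, of which 68 were matched to a probe. In A549, 35 of them were tested and 7 called, 1 higher and 6 lower, where 6.92% of all probes tested were called and 3.43% called lower, and in HCC827 38 were tested and 1 called, higher, where 0.885% of all were called and 0.292% called higher. The median change of the tested genes was -0.03 in A549 and 0.08 in HCC827. Of the genes of arachidonic acid release and reacylation, limma called 0 of 6 tested in A549 and 0 of 7 in HCC827, with 3 and 1 at an unadjusted p under 0.05. Of the 7 other prostanoid receptors, 1 was tested in each line and not called.

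Among the cAMP response genes, 3 of the 7 tested were called in A549, all lower, beside the 3.43% of all probes called lower. Those not called in A549 went both ways, with changes between -2.60 and 0.48. In HCC827 0 of 4 were called, beside 0.885% of all probes, and 2 had an unadjusted p under 0.05. AREG, the EGF receptor ligand amphiregulin, was at 4.59, 4.66 and 4.56 in the A549 mock replicates and at 1.95, 2.81 and 2.59 in TRIM58-WT, a change of -2.15 (SE 0.25, adjusted p = 0.00657). In HCC827 its replicates stayed between 5.32 and 5.39, a change of 0.01 (adjusted p = 0.964). PDE4D, a phosphodiesterase that breaks down cyclic AMP, changed by -1.52 (SE 0.23, adjusted p = 0.0137) and the orphan nuclear receptor NR4A3 by -1.22 (SE 0.24, adjusted p = 0.0295) in A549. The probes of PDE4D disagreed. On A_33_P3389653, used for A549, the mock replicates were at 3.54, 3.65 and 3.41 and the TRIM58-WT replicates at 2.44, 1.75 and 1.84, while on A_33_P3389649 they were at 2.35, 2.51 and 0.42 and at 2.34, 0.20 and 0.26.

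Of the enzymes that handle prostaglandins beyond the members, the aldo-keto reductases AKR1C3 and AKR1C1 were called in A549, and AKR1B1 was not (-0.0079, adjusted p = 0.991). AKR1C3, which makes prostaglandin F2 alpha, was at 8.13, 8.36 and 8.39 in mock and at 7.26, 6.30 and 6.39 in TRIM58-WT, a change of -1.65 (SE 0.29, adjusted p = 0.0218). AKR1C1 changed by -2.05 (SE 0.38, adjusted p = 0.0256). The AKR1C genes are near-identical in sequence, so a probe of one may bind the RNA of another. In HCC827 AKR1C3 lay between 0.50 and 0.86, a change of -0.01 (adjusted p = 0.979).

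In the lipoxygenase branch, which competes for arachidonic acid, ALOX5AP, the activating protein of 5-lipoxygenase, was the one gene called, and it was higher in A549 TRIM58-WT. Its level was -3.65, -3.93 and -3.09 in the mock replicates, not well above background, and -0.61, -1.04 and -0.65 in TRIM58-WT. This made it at least 4.36-fold higher (adjusted p = 0.00336), and no HCC827 array had it well above background. ALOX5, the 5-lipoxygenase itself, was not tested in A549. Its level was 0.94, 1.01 and -4.05 in the mock replicates. In A549 TRIM58-WT it was -4.79, -4.57 and -4.57, on no array well above background. In HCC827 the change of ALOX5 was 1.04 (SE 0.20, adjusted p = 0.103), not called. Of the regulators of cyclooxygenase-2, the interleukin-1 receptor IL1R1 was called lower in A549, with a change of -1.21 (SE 0.20, adjusted p = 0.0195). CELF2, which binds the messenger RNA of PTGS2, was called higher in HCC827, by 1.84 (SE 0.14, adjusted p = 0.0341), with -1.27 and -1.47 for mock against 0.44 and 0.50 for TRIM58-WT.

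**Figure D5:**
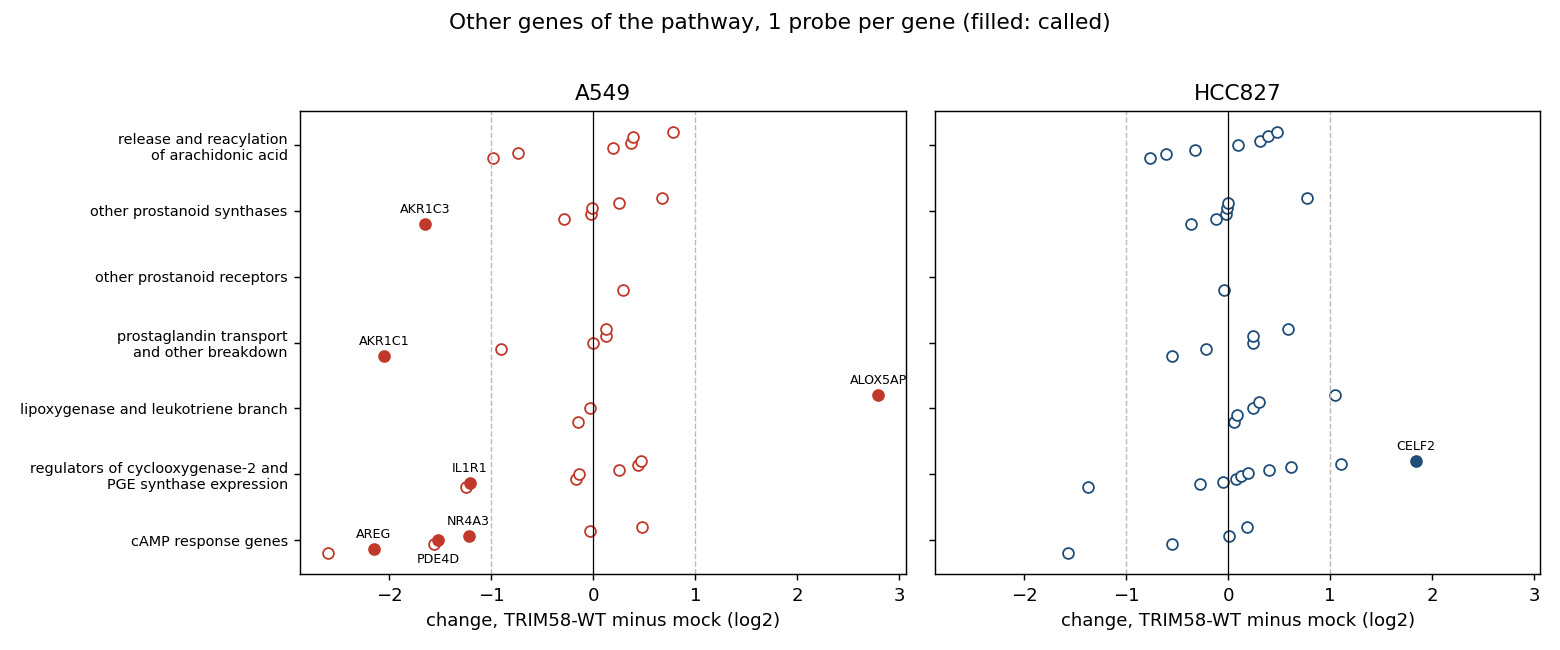
Change between TRIM58-WT and mock (log2) of the genes of the wider list that were tested, by role, in A549 (left) and HCC827 (right), with filled points and names for called genes and dashed lines at 2-fold. In A549 the called genes are 6 lower and 1 higher, at 2.79 (ALOX5AP), and in HCC827 CELF2 alone is called.

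Between the mock cells of the lines, 41 genes of the wider list were tested and 21 called, 14 higher and 7 lower in A549, where 30.1% of all probes tested were called, 14.0% higher and 16.1% lower. The aldo-keto reductases AKR1C3 and AKR1B1 were higher in A549 by 7.61 (adjusted p = 4.05e-07) and 4.33 (6.62e-06), and AKR1C1 by at least 2050-fold (2.09e-07). The prostaglandin transporter SLCO2A1 was at least 36.1-fold lower in A549 (adjusted p = 2.44e-05). Of the cAMP response genes, 5 of 7 tested were called, all higher in A549, beside the 14.0% of all probes called higher.

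The count of called genes of the wider list in A549 between mock and TRIM58-WT lay between 0 and 14 over the alternatives run. It was 2 without mock replicate 1 or 2, TRIM58-WT replicate 2 or 3, and 14 without mock replicate 3. The HCC827 call of CELF2 was lost when any 1 replicate of that line was left out.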

How the data were processed

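RNA of stable transfectants was measured on 11 one-colour Agilent arrays with 42405 probes. The authors deposited the intensity of each spot after background subtraction and removal of spatial trends by Agilent Feature Extraction (10.7 in the submitters' processing notes, 11.5.1.1 in the file headers), with no scaling between arrays. The deposited series table, in log2, served as an alternative, and 95.5% of its values lay within 0.01 of the log2 values computed here up to a baseline per probe.

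Here, R 4.3.3 and limma 3.58.1 were used. Control and outlier spots were left out, repeated spots of a probe were averaged, and each array was scaled to its own 75th percentile before taking log2. A probe was tested if all arrays of 1 or more of the groups compared put it well above background, with lmFit, eBayes and Benjamini-Hochberg adjustment over all probes tested, within each line and, for the difference between the lines and for the mock cells, in one fit of all 4 groups. Called means an adjusted p under 0.05 and a change of at least 2-fold, or the adjusted p alone for the difference. Symbols came from RefSeq accessions (27241 of 28302 probes with one were named). Where a gene had several probes the brightest was used in the wider list, of which PLA2G4B and AKR1C2 had no match.

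The 10 genes, the wider list, the markers and the tests were chosen with earlier results of these data known. Genes of the wider list are named where called, at most 3 per role, and for PTGS2 and PTGR1 the 3 genes of nearest pattern. ALOX5 is named beside ALOX5AP although not called. The fits were tested on simulated data. The number of arrays limits the precision. Plots were made in matplotlib 3.10.9 under Python 3.11.15.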

Additional observations from a re-analysis of the deposited data

Results flagged for a closer look

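The change between TRIM58-WT and mock was compared between A549 and HCC827 by limma's test of the difference itself (A549 change minus HCC827 change, log2). It differed for 1 of the 10 tested member probes and 5 of the 43 tested genes of the wider list. Over all 20617 probes tested, 3.85% were called. The difference was -4.13 for PTGS1 (A_23_P216966, adjusted p = 0.000101), lower in 3 of 3 A549 and higher in 2 of 2 HCC827 TRIM58-WT replicates than in every mock replicate of their line. No TRIM58-WT array of A549 measured PTGS1, and with A549 at its bound the difference was -1.90. It was -4.98 for CELF2 (adjusted p = 0.000649), at -2.33 to -1.47 in A549 mock and -5.12 to -4.78 in A549 TRIM58-WT, where it was not well above background, so the size is not exact. It was -2.97 for AKR1C1 (0.0230), which was well above background on 1 of the 4 HCC827 arrays, and -2.17 for AREG (0.0142). It was -1.49 for CBR3, a carbonyl reductase (0.0158), which changed by -0.90 in A549 and 0.59 in HCC827. It was 1.86 for ALOX5AP (0.0479), which was not well above background on any HCC827 array, so that the HCC827 part of its difference, a change of 0.94, lies wholly among levels that were not measured.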

How the results depend on the processing

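The alternatives were run one at a time, and averaging A549 TRIM58-WT replicates 2 and 3, which differed by an SD of 0.19 (log2) across probes against 0.24 between repeat arrays 1-1 and 1-2, and slide 1 alone for the mock cells were added after seeing the data. The count of member probes called in A549 was 2. It became 4 with a median shift, both lines in one fit, slide as a block or 4 mock arrays separately. The slide block also took the 4 mock arrays separately. The A549 count was 1 with normexp, the filter on every array, the methods' t-test or the averaged replicates. In HCC827 it was 3, and 1 with normexp or both lines in one fit. It was 0 with no filter (5 at an unadjusted p under 0.05), the replicate block (6) and the methods' t-test (2). For the difference it was 1, and 2 with a median shift or 4 mock arrays separately and 0 with the filter on every array (1 at an unadjusted p under 0.05), which left PTGS1 out. For the mock cells it was 7, and 4 with normexp or the filter on every array. With 1 replicate left out the counts lay between 1 and 4 in A549, 0 and 2 in HCC827, 1 and 3 for the difference and 4 and 6 for the mock cells. In A549 the replicate block gave 3, adding PTGS2 at an adjusted p of 0.049997, although the numbers do not pair the replicates. The deviations of same-numbered replicates correlated at 0.50, -0.42 and 0.50 in A549 and 0.08 in HCC827, so not every pair deviated together. Mock 3 with TRIM58-WT 2 gave 0.57 and mock 2 with TRIM58-WT 1 gave 0.41, so that not every replicate correlated best with its own number.

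Over all probes, calls ranged from 24 (the methods' t-test) to 2192 (without mock replicate 3) in A549, 0 to 650 in HCC827, 224 to 2211 for the difference and 3028 to 8387 for the mock cells, against 1171, 173, 794 and 5872. The study's array methods name no test, and it reports more A549 probes at these thresholds than the 24 found with Welch's t-test. The median shift moved the A549 median of all probes from 0.06 to -0.31. Both scalings subtract 1 value per array, so changes relative to that median are the same by construction. PLA2G4A changed by -2.90, PTGS2 by -3.37, PTGS1 by -2.64 and PTGR1 by -1.17 relative to it.

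PLA2G4A, PTGS2, PTGR1 and PTGS1 (A_23_P216966) kept the sign of their change in both lines under every alternative run. Signs turned only for changes of members that were not called, and for the second PTGS1 probe between the mock cells (0.039 with normexp). With a median shift, the A549 change of PTGES2 was -0.28 and the difference was -0.11 for PTGER4, -0.19 for PTGES2 and -0.21 for HPGD. HPGD gave -0.0056 with quantile normalization, and PTGES2 -0.066 with replicates averaged. With 1 replicate left out, the A549 change lay between -0.14 and 0.48 for PTGES2, -0.73 and 0.12 for PTGES and -0.46 and 0.22 for PTGES3. The difference then lay between -0.016 and 0.60 for PTGES2, -0.51 and 0.34 for PTGES, -0.20 and 0.57 for HPGD and -0.68 and 0.011 for PTGES3. In all, 612 of the member changes kept direction and call, which includes those that were not called and stayed so. A further 47 lost the call, 20 gained it and 21 turned sign. In A549 PLA2G4A kept its call in 16 of 22 alternatives and PTGS1 (A_23_P216966) in 20 of 21. In HCC827 PLA2G4A kept it in 8 of 15, PTGS1 in 6 of 15 and PTGS2 in 5 of 14.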
